A study of Homo sapiens with 12 samples.

Results

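The genes described here encode collagens, laminins and a set of matrix glycoproteins, the proteins that cells secrete to build the extracellular matrix. Of 58219 gene rows in the deposited table, 19817 were protein coding, and 66 of these carried a collagen chain symbol, a laminin chain symbol or one of 10 glycoprotein symbols (FN1, FBLN1, FBLN2, FBN1, FBN2, NID1, NID2, HSPG2, TNC and SMOC1). They comprised 44 collagen genes, 12 laminin genes and the 10 glycoprotein genes. Poly(A) RNA came from H9, an established human embryonic stem cell line, either wild type or labelled SOX21-/-, at day 0 (embryonic stem cells) and at days 4 and 8 of neural differentiation (derived neural progenitors). SOX21 is a transcription factor gene of the SOX family that neural progenitors express. Each genotype and day had 2 libraries, 12 in all. The wild-type libraries are named WT1 and WT2 at each day, and those labelled SOX21-/- are named S13 and S23. The labels do not say whether S13 and S23 are separate clones, or WT1 and WT2 separate cultures. The p-values thus measure the spread between libraries, which may be technical.

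Values were in TPM, which give the part of a library's transcripts that a gene accounts for, corrected for length and set to a common total. Read numbers cannot be had from TPM, and sequencing depth is therefore unknown. SOX21 itself read 129 and 100.04 TPM in WT1 and WT2 at day 8, and 253 and 69.9 TPM in S13 and S23. The SOX21-/- label was thus not visible in the amount of SOX21 mRNA. The labels do not say where the alteration lies, and a small one can leave the transcript in place, so these values do not check the label. Markers of the labelled cell types were present: POU5F1, a gene of pluripotent cells, stood at 1507 TPM or more at day 0, and the summed TPM of 9 neural progenitor markers went from 108 to 122 at day 0 to 1716 to 1960 at day 8. The day 0 libraries stood apart in makeup: nuclear protein-coding genes took 55.9% to 56.4% of their TPM, against 83.5% to 87.1% later. The library protocol names 3 sequencers without assigning them, so sequencer and day cannot be told apart. In bulk RNA, fewer cells of a type and less RNA per cell cannot be told apart either.

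Collagens are built from 3 chains wound into a triple helix, and each family assembles into its own structure. Collagen IV forms the sheet-like network of basement membranes, in which laminins (trimers of an alpha, a beta and a gamma chain) make a second network, with nidogens and perlecan linking both. Fibrillar collagens such as types I, II, V and XI form the rope-like fibrils of connective tissue and cartilage. In the embryo the neuroepithelium rests on a basement membrane, and laminin is widely used as a substrate for neural progenitors in culture.

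The 6 collagen IV genes are arranged as 3 pairs, each transcribed in opposite directions from neighbouring start sites. Because the members of a pair share the DNA between them, the stretches between the RefSeq start sites are printed first, on the plus strand of GRCh38.p14. That of COL4A1 and COL4A2 (chr13:110307158-110307283) holds all 126 bases between the start sites. That of COL4A3 and COL4A4 (chr2:227164374-227164455) holds 82 of 418 bases, and that of COL4A5 and COL4A6 (chrX:108439588-108439708) holds 121 of 379 bases. In GENCODE v29 some transcripts of these genes begin inside the stretches. Capitals mark the motif of a GC box (GGGCGG), that of a CCAAT box (the letters of its name) or that of a TATA box (with letters TATAAA), on either strand.
COL4A1 and COL4A2: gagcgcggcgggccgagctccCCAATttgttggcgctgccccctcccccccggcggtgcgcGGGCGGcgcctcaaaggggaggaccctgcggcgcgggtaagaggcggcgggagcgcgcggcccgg
COL4A3 and COL4A4: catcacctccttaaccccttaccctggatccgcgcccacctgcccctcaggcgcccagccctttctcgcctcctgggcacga
COL4A5 and COL4A6: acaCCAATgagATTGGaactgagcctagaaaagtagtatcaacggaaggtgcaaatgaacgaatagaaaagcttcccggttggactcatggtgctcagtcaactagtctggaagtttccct
The first stretch held 1 GC box and 1 CCAAT box, the second held none of the motifs, and the third held 2 CCAAT boxes, 1 on each strand.

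The 250 bases before a RefSeq start site are shown for FBLN1 and for both starts of COL18A1, because these genes carried the firmest differences between genotypes. They lie on the plus strand at chr22:45502633-45502882, chr21:45404915-45405164 and chr21:45455272-45455521, with the same motifs in capitals.
FBLN1 start 1: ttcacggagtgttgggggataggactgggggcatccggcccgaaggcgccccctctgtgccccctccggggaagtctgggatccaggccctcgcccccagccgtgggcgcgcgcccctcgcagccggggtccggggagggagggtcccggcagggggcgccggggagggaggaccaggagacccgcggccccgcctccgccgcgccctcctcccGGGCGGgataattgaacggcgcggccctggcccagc
COL18A1 start 1: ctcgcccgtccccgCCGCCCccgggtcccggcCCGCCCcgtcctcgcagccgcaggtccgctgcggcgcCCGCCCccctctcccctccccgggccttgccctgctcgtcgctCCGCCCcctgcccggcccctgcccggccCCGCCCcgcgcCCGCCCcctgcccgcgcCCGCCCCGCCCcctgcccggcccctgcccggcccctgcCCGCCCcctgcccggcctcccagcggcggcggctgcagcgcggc
COL18A1 start 2: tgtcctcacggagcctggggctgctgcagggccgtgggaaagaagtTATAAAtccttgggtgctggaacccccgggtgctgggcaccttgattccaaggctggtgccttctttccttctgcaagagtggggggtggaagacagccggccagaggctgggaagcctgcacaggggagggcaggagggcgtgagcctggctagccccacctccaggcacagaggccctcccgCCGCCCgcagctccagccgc
FBLN1 held 1 GC box in this window, COL18A1 start 1 held 9, counting those that overlap, and start 2 held 1 GC box and 1 TATA box. The core letters bound by SOX factors, ACAAT, were searched on both strands and matched 0 times in any of the 6 printed sequences. The collagen IV stretches hold only 82 to 126 bases, and the 6 sequences have 44.6% to 88.4% G and C. Their 0 matches thus cannot be set against a share of other promoters. Among 35116 RefSeq promoters of 250 bases, 24.6% held these letters. The GC box was in 42.6% of those promoters, the CCAAT box in 32.0% and the TATA box in 10.7%. Among 66 such promoters of 51 matrix genes the shares were 62.1% for the GC box, 28.8% for the CCAAT box, 13.6% for the TATA box and 12.1% for ACAAT. A match describes these letters and is not a binding site.

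Of the 66 genes, 52 had 1 TPM or more in 2 or more libraries and entered the test (32 collagens, 10 laminins and all 10 glycoproteins), and 14 did not. Below 1 TPM in every library were COL3A1, COL4A4, COL6A5, COL6A6, COL8A2, COL19A1, COL20A1, COL24A1, LAMB3 and LAMB4. The other 4 untested genes, COL4A3, COL5A3, COL8A1 and COL17A1, passed 1 TPM in 1 library each. At the upper end, 22 genes had a mean of at least 50 TPM in some group. The summed TPM of all 66 genes lay between 838 and 881 at day 0. The day 4 sums were 1815 and 2038 for the wild-type libraries and 1433 and 1610 for the labelled ones. The day 8 sums were 2842 and 2695, and 2510 and 2457. The wild-type sums were the higher at both later days, without overlap, but not in every family. At day 8 the glycoproteins summed to 756 and 819 TPM in wild type against 463 and 510.05 TPM, the collagens overlapped (1549 and 1431 against 1481 and 1392 TPM), and the laminins were higher in S13 and S23 (536 and 445 against 566 and 556 TPM). Without COL2A1 the day 8 sums of all the genes overlapped as well (2116 and 2035 against 2056 and 1999 TPM).

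**Figure D1:**
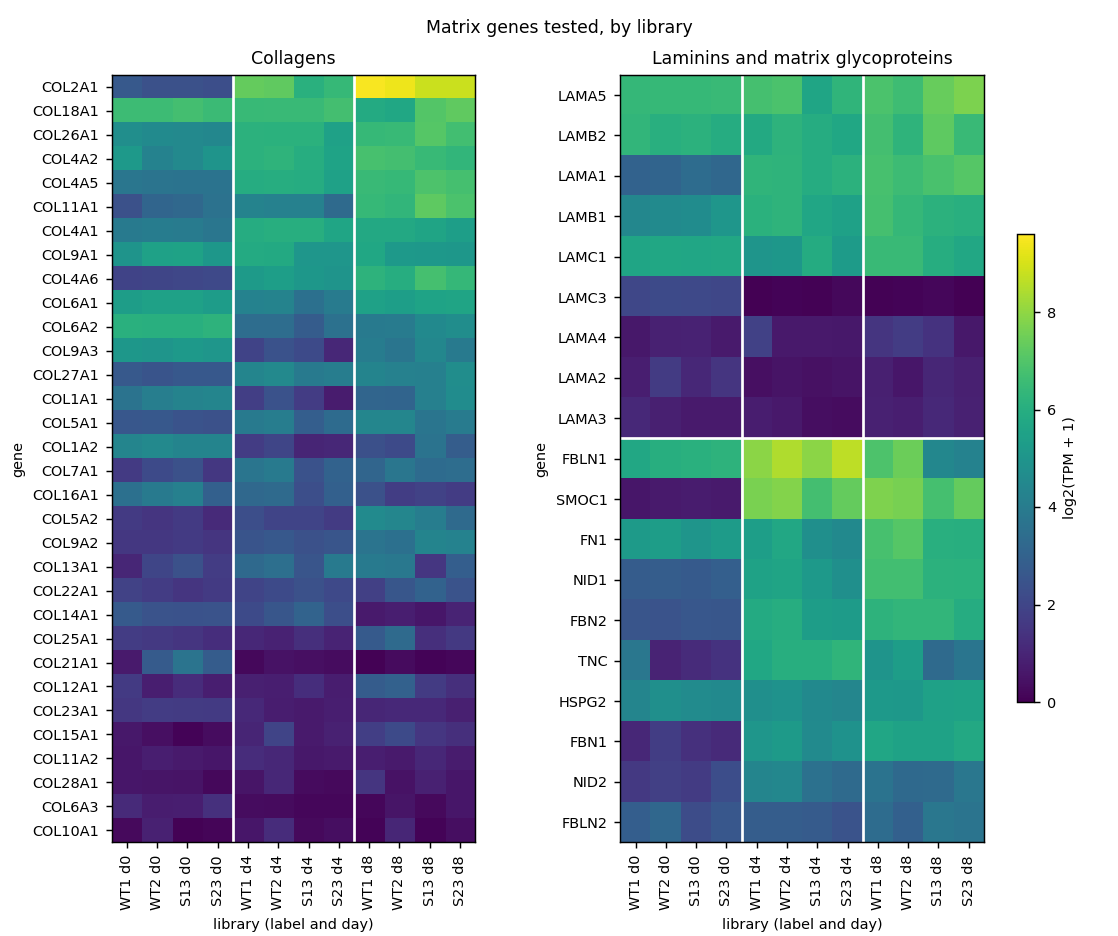
The log2(TPM + 1) level (colour) of 51 of the 52 matrix genes tested (rows) in each library (columns, label and day), with collagens at left and laminins and glycoproteins at right. COL2A1 goes from the low to the top end of the scale between day 0 and day 8, SMOC1 and FBLN1 are bright at day 4, and FBLN1 is dim in S13 and S23 at day 8.

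At day 8 the libraries labelled SOX21-/- had less fibulin-1 mRNA and more collagen XVIII mRNA than the wild-type ones. The tests used limma on log2(TPM + 1) over 24248 genes with Benjamini-Hochberg adjustment, a gene passing under 0.05, and a change on that scale understates that of genes with low values. In S13 and S23, 3 of the 52 genes tested were lower than in WT1 and WT2 (FBLN1, COL25A1 and FN1) and 2 were higher (COL18A1 and COL9A2). Over all genes tested 2.79% passed at day 8, with 1.47% higher and 1.32% lower. Of the 14450 protein-coding genes among them, 261 were higher and 212 lower. The median difference of the 52 genes was -0.01, against 0.00 for all genes tested.

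FBLN1 (chr22:45502238-45601135, plus strand) encodes fibulin-1, a secreted calcium-binding glycoprotein found in basement membranes and elastic fibres. At day 8 it read 119 and 175 TPM in WT1 and WT2, and 20.7 and 18.0 TPM in S13 and S23. Both labelled libraries stood far below both wild-type ones, a log2 change of -2.83 (SE 0.28, adjusted p = 0.00221 by limma, n = 2 per group), or 7.13-fold lower. At day 4 the same gene was high in all 4 libraries: WT1 and WT2 read 240.4 and 353 TPM, S13 and S23 read 241 and 394 TPM. At day 0 it read 53.4 and 63.9 TPM against 67.7 and 73.6 TPM. The day 8 call held under every alternative scaling, filter and left-out library that was run.

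COL18A1 (chr21:45405137-45513720, plus strand) encodes the alpha chain of collagen XVIII, a basement membrane collagen that carries heparan sulfate and releases endostatin from its end. It read 57.9 and 52.1 TPM in WT1 and WT2 at day 8, against 129 and 153 TPM in S13 and S23. The groups did not overlap, and the labelled libraries were 2.53-fold higher (log2 change 1.34, SE 0.11, adjusted p = 0.00117 by limma). At day 4 the values were 88.3 and 88.9 against 90.0 and 106 TPM, and at day 0 they were 95.8 and 94.6 against 104 and 93.0 TPM. The day 8 call also held under every alternative run. SLC19A1 lies on the opposite strand and overlaps this gene. It read 17.1 and 16.2 TPM against 20.8 and 26.5 TPM at day 8, and since the use of strand in the counting is not stated, reads of the overlap cannot be assigned.

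FN1 (chr2:215360440-215436172, minus strand) encodes fibronectin, which links integrins to collagen and other matrix proteins. At day 8 it read 109.8 and 132 TPM in WT1 and WT2 and 65.4 and 63.3 TPM in S13 and S23. The groups did not overlap (log2 change -0.89, SE 0.15, adjusted p = 0.0220 by limma). The call was lost without WT2 (adjusted p = 0.144), S13 (0.0817) or S23 (0.115) of day 8, and in a fit of days 4 and 8 alone (0.0533). COL25A1 (chr4:108808725-109302752, minus strand) encodes a transmembrane collagen made by neurons. Its day 8 levels were low, 5.56 and 8.86 TPM in WT1 and WT2 against 1.45 and 2.04 TPM in S13 and S23, with a log2 change of -1.56 (SE 0.25, adjusted p = 0.0168 by limma). That call was lost without WT2 (adjusted p = 0.0978), S13 (0.0795) or S23 (0.0545) of day 8, and in the fit of days 4 and 8 (0.0722).

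COL9A2 (chr1:40300487-40317813, minus strand) encodes a chain of collagen IX, which decorates the surface of collagen II fibrils. It read 11.9 and 10.8 TPM in WT1 and WT2 at day 8 and 19.1 and 18.1 TPM in S13 and S23. The difference was close to the threshold (log2 change 0.67, SE 0.14, adjusted p = 0.0457 by limma). The call was lost on leaving out any one of 10 of the 12 libraries, all but S13 and S23 of day 4. It was also lost with a pseudocount of 0.1 (adjusted p = 0.0780 by limma). A fit of days 4 and 8 alone (0.107) and one with the library label as a block (0.119) lost it too. COL2A1, the fibrillar collagen with which collagen IX associates, did not pass at day 8. WT1 and WT2 read 726 and 660.1 TPM, S13 and S23 454 and 459 TPM (log2 change -0.60, adjusted p = 0.0578 by limma).

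Several chains that did not pass at day 8 had groups that did not overlap. COL1A1 and COL1A2, the chains of collagen I, had log2 changes of 1.31 (adjusted p = 0.0941 by limma) and 0.99 (0.0895). COL1A1 read 7.71 and 7.60 TPM in WT1 and WT2 and 17.2 and 24.1 TPM in S13 and S23. COL1A2 read 4.11 and 3.49 TPM against 11.7 and 6.11 TPM. LAMA5, NID1 and COL12A1 had adjusted p-values of 0.0852, 0.0730 and 0.0611. Of the 52 genes tested, 16 had both labelled libraries above both wild-type ones, where 21.4% of all genes did, and 18 had both below, where 21.7% did. Of protein-coding genes tested, 25.9% had both above and 25.3% both below. With nuclear protein-coding genes rescaled to a common total, 9 of 53 matrix genes tested passed at day 8, adding COL1A2, COL2A1, COL12A1 and LAMA5, and the share of all genes tested that passed was also larger, at 5.04%.

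**Figure D2:**
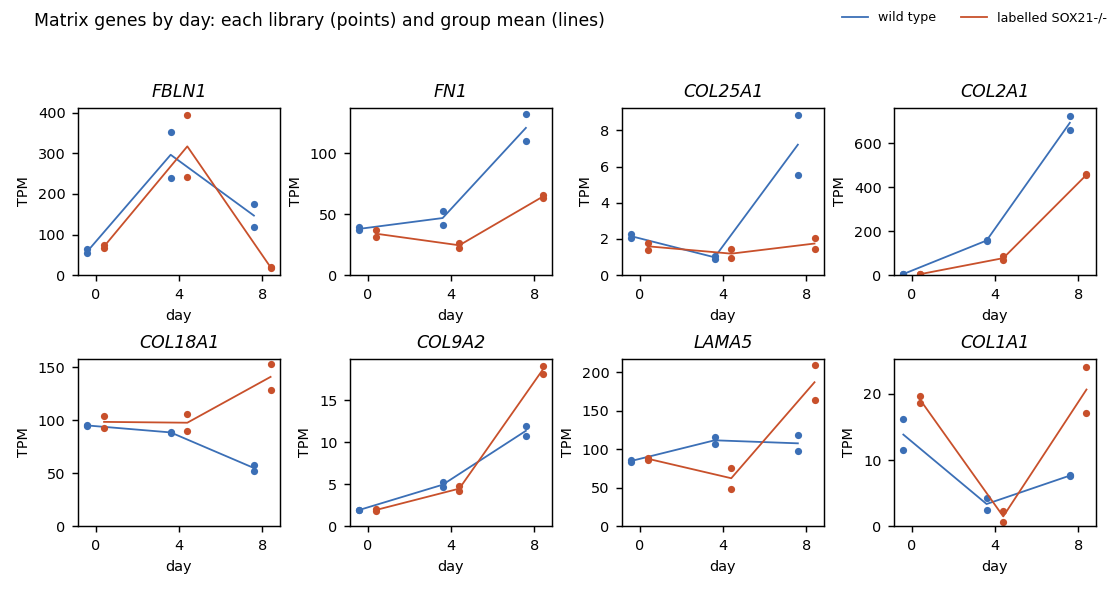
TPM (vertical axes, each its own scale from 0) of 8 matrix genes at days 0, 4 and 8 (horizontal axes, genotypes set slightly apart), with each library as a point and lines through the group means, wild type in blue and labelled SOX21-/- in red. FBLN1 is alike in both genotypes until day 4 and lower in S13 and S23 at day 8, at 20.7 and 18.0 TPM, while COL18A1 is higher there, at 129 and 153 TPM.

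At day 4 the libraries labelled SOX21-/- had lower COL2A1 and FN1, and 0 of the 52 genes were higher. Over all genes tested 0.775% passed, with 0.536% lower and 0.239% higher. Of the 14450 protein-coding genes among them, 79 were lower and 40 higher. COL2A1 (chr12:47972965-48004554, minus strand), the chain of the fibrillar collagen of cartilage and notochord, read 161 and 153 TPM in WT1 and WT2 and 68.0 and 86.2 TPM in S13 and S23. The groups were well apart (log2 change -1.03, SE 0.13, adjusted p = 0.0219 by limma). The call was lost without WT1 (adjusted p = 0.116), WT2 (0.108) or S13 (0.0649) of day 4, and in a fit of days 4 and 8 alone (0.0619). FN1 read 41.1 and 52.7 TPM against 26.4 and 22.5 TPM, without overlap. Its log2 change of -0.90 (SE 0.15, adjusted p = 0.0493 by limma) was lost on leaving out any 1 of the 12 libraries (0.0663 to 0.221) and in every other alternative except the filter at 5 TPM and protein-coding rescaling, with 0.107 under median-of-ratios scaling.

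The day 4 differences leaned one way. In 30 of the 52 genes both labelled libraries lay below both wild-type ones, while in 2 they lay above. The same held for 33.8% and 11.1% of all genes tested, and for 39.0% and 14.7% of protein-coding genes tested. The whole table thus leaned lower as well. The median difference was -0.36 for the matrix genes and -0.12 for all genes tested. COL5A1, NID1, FBN2 and LAMA5 were among those that did not pass, with log2 changes of -0.90, -0.61, -0.64 and -0.86 (adjusted p = 0.0623, 0.0781, 0.0751 and 0.0943 by limma). COL5A1 and LAMA5 passed with nuclear protein-coding genes rescaled, which gave 4 calls in 53 matrix genes, where 1.72% of all genes tested then passed.

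At day 0, in embryonic stem cells, 0 of the 52 matrix genes differed between genotypes by limma, where 0.384% of all genes tested passed. Of the 14450 protein-coding genes among them, 4 were higher and 8 lower. Under an unadjusted p of 0.05, 2 matrix genes passed, where 5.88% of all genes tested did. The median difference of the 52 genes was 0.01. Both labelled libraries were below both wild-type ones in 11 genes and above in 8, where 14.0% and 15.7% of all genes were. For protein-coding genes tested these shares were 14.8% and 18.5%. Without WT2 of day 0 the count that passed was 2, where 0.647% of all genes tested passed. Among the laminin genes, LAMA1 and LAMB1 had both labelled libraries above both wild-type ones, and LAMA3 had both below. In the 3 laminin genes with the highest levels at day 0 the groups overlapped. LAMA5 read 83.5 and 86.1 TPM against 86.0 and 89.3 TPM. LAMB2 read 78.8 and 65.1 against 70.3 and 61.1 TPM, and LAMC1 read 48.8 and 52.1 against 50.6 and 52.7 TPM.

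**Figure D3:**
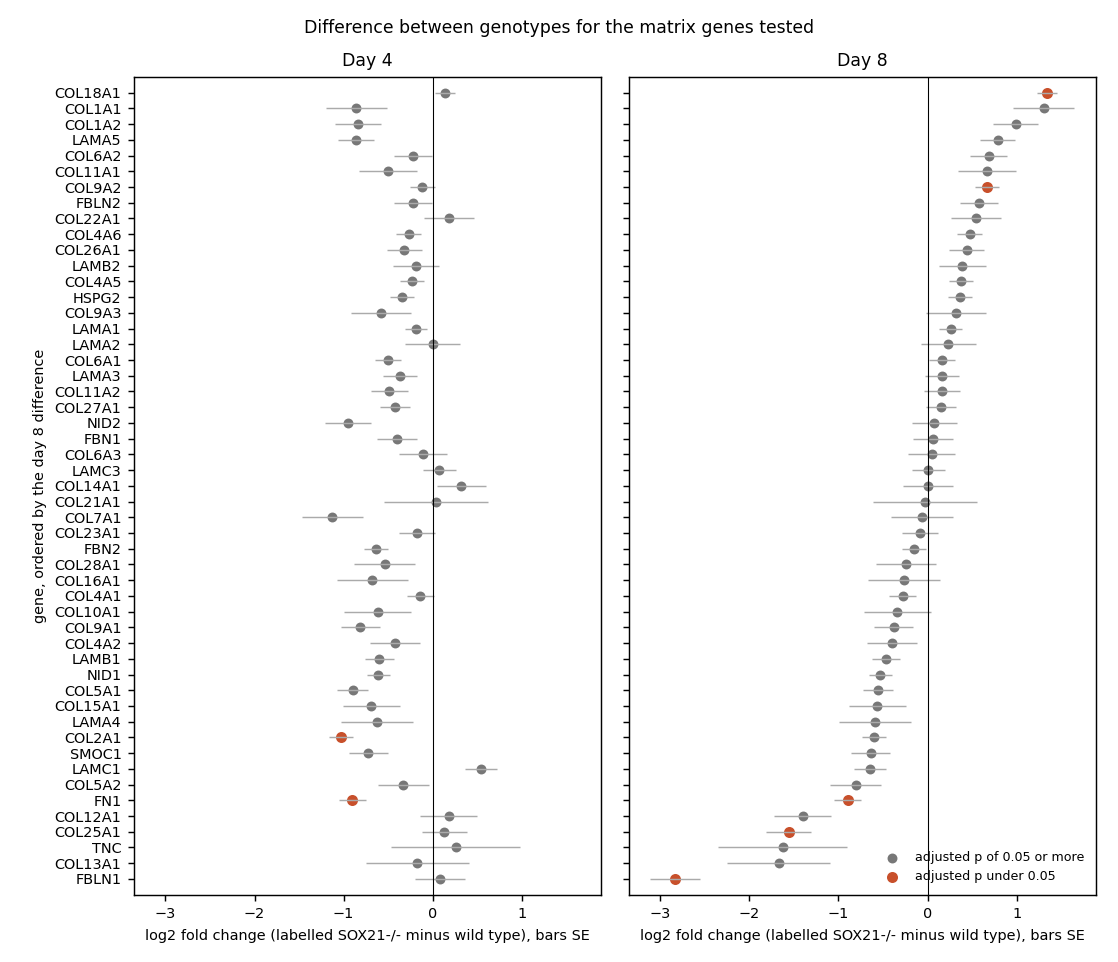
Log2 fold change of libraries labelled SOX21-/- against wild type (horizontal axis, bars are the standard error) for 51 of the 52 matrix genes tested, at day 4 (left) and day 8 (right), in the order of the day 8 difference. Red points passed an adjusted p of 0.05: COL2A1 and FN1 at day 4, and FBLN1, COL25A1, FN1, COL9A2 and COL18A1 at day 8.

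The difference between genotypes changed from day 4 to day 8 in 3 of the 52 genes by the interaction test, where 1.11% of all genes tested did. Of 14450 protein-coding genes tested, 137 passed upward and 43 downward. FBLN1 moved down by -2.91 (SE 0.39, adjusted p = 0.0201 by limma), from a log2 difference of 0.08 at day 4 to -2.83 at day 8. COL18A1 moved up by 1.20 (SE 0.16, adjusted p = 0.0199 by limma), from 0.14 to 1.34. LAMA5 moved up by 1.65 (SE 0.28, adjusted p = 0.0424 by limma), from -0.86 to 0.79, neither of which passed by itself. LAMA5 (chr20:62307955-62367312, minus strand) encodes the laminin alpha 5 chain, a major alpha chain of pluripotent cells and of mature epithelial basement membranes. It read 107 and 116 TPM in WT1 and WT2 at day 4 and 118 and 97.3 TPM at day 8. S13 and S23 read 48.7 and 76.0 TPM at day 4, below both, and 165 and 209 TPM at day 8, above both. ADRM1 overlaps LAMA5 on the opposite strand, at 61.8 and 57.5 against 66.4 and 54.3 TPM at day 8.

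None of the 3 interaction calls held in every fit, and all 3 were lost with days 4 and 8 alone (adjusted p = 0.0701 for FBLN1, 0.0684 for COL18A1 and 0.110 for LAMA5, by limma). FBLN1 was lost without WT1 of day 4 (0.0689) or without WT2 (0.0708) or S23 (0.0757) of day 8. COL18A1 was lost without WT1 (0.0691), WT2 (0.0737) or S13 (0.0525) of day 4, or WT2 (0.0709) or S23 (0.0524) of day 8. LAMA5 was lost without any one of 11 of the libraries, all but S23 of day 4 (0.0553 to 0.133), and with a pseudocount of 0.1, no filter, quantile or median-of-ratios scaling (0.0501 to 0.0706). From day 0 to day 4 the difference changed in 0 matrix genes by limma, where 0.408% of all genes tested passed. Of 14450 protein-coding genes tested, 9 passed upward and 23 downward. An unadjusted p under 0.05 was found in 15 of the 52 matrix genes and in 12% of all genes tested.

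Collagen II went from a low level at day 0 to the highest of the matrix genes at day 8. COL2A1 stood at 5.35, 4.15, 4.26 and 3.93 TPM in WT1, WT2, S13 and S23 at day 0. By day 8, at the values above, it was the matrix gene with the highest TPM in every library. It took 0.459% to 0.639% of the summed TPM of the matrix genes at day 0, and 25.5% and 24.5% in WT1 and WT2 and 18.1% and 18.7% in S13 and S23 at day 8. Its wild-type steps were 4.79 from day 0 to day 4 (SE 0.13, adjusted p = 4.24e-08 by limma) and 2.13 from day 4 to day 8 (SE 0.13, adjusted p = 0.000175). In S13 and S23 the steps were 3.93 (adjusted p = 1.25e-07) and 2.56 (adjusted p = 6.37e-05).

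Between day 0 and day 4 in wild type, 33 of the 52 genes changed, 23 up and 10 down, where 65.7% of all genes tested did (54.3% up, 11.4% down). Of 14450 protein-coding genes tested, 9577 were up and 1551 down. The median change of all genes tested was 0.91 on the log2 scale, a shift that moves with the makeup of the day 0 libraries described above, and its part in single genes was not tested. Calls over this step are therefore also read by whether they had the same direction under 3 scalings. These were TPM as deposited, median-of-ratios factors, and nuclear protein-coding genes rescaled. In TPM as deposited a fall had to pass against that shift, so the rule is stricter for falls than for rises. The 3 scalings left 13 matrix genes up and 10 down, where 25.1% and 10.7% of protein-coding genes were up and down. Under median-of-ratios scaling alone 13 matrix genes were up and 25 down, where 3629 and 4946 of 14450 protein-coding genes were. In S13 and S23 the step had 18 matrix genes up and 12 down (60.6% of all genes tested passed, 48.1% up and 12.5% down, median 0.72). Of 14450 protein-coding genes tested, 8837 were up and 1779 down there. Under the 3 scalings 11 matrix genes were up and 12 down, where 26.5% and 12.3% of protein-coding genes were. Under median-of-ratios scaling alone 11 matrix genes were up and 24 down, where 3820 and 4714 of 14450 protein-coding genes were.

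The 11 genes up in both genotypes under all 3 scalings were COL4A1, COL4A5, COL4A6, LAMA1, NID1, FBN1, FBN2, FBLN1, SMOC1, TNC and COL2A1. Other basement membrane genes, COL4A2, LAMA5, LAMB1, LAMB2, LAMC1 and HSPG2, were not among them. The matrix genes down in both genotypes included COL1A1, COL1A2, COL6A1, COL6A2, COL9A3, COL23A1 and LAMC3. The share of all genes that moved alike in both genotypes was not counted. SMOC1 (chr14:69854131-70032366, plus strand), which encodes a calcium-binding matricellular protein of basement membranes that modulates BMP signalling, had the widest step. It read 0.503 to 0.653 TPM at day 0, then at day 4 205 and 227 TPM in WT1 and WT2 and 106 and 159.8 TPM in S13 and S23. All 4 day 4 libraries were far above all 4 day 0 libraries, with log2 changes of 7.12 in wild type and 6.34 in S13 and S23 (adjusted p = 7.48e-08 and 1.40e-07 by limma). It stayed near these levels at day 8, at 215 and 198 TPM against 108 and 162 TPM. At both later days S13 and S23 lay below WT1 and WT2 without passing (adjusted p = 0.161 and 0.191).

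**Figure D4:**
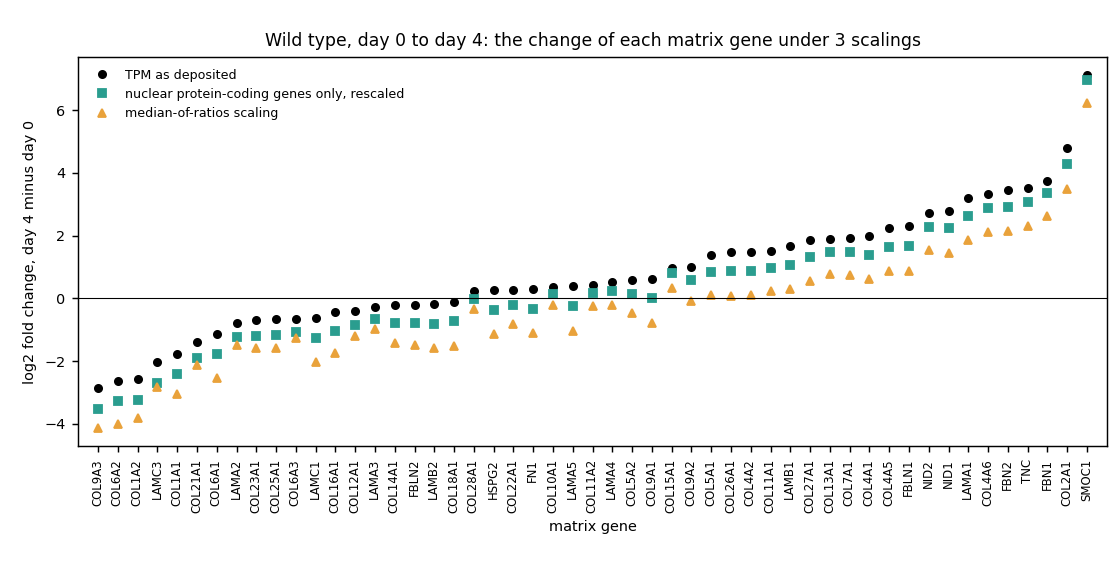
Log2 fold change from day 0 to day 4 in wild type (vertical axis) of 51 of the 52 matrix genes tested (horizontal axis, ordered), with TPM as deposited (circles), nuclear protein-coding genes rescaled (squares) and median-of-ratios scaling (triangles). SMOC1 at 7.12 and COL2A1 at 4.79 lie far above 0 under all 3 scalings, while COL9A1 and COL9A2 in the middle change sign.

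From day 4 to day 8 in wild type 17 genes changed, 13 up and 4 down, where 12.6% of all genes tested did (7.62% up, 4.99% down). Of 14450 protein-coding genes tested, 1337 were up and 999 down. Under the 3 scalings 12 matrix genes were up and 3 down, where 6.18% and 6.46% of protein-coding genes were. In S13 and S23 28 genes changed, 25 up and 3 down, where 26.1% of all genes tested did (19.0% up, 7.15% down). Of the protein-coding genes tested, 3295 were up and 1534 down there. Under the 3 scalings 20 matrix genes were up and 3 down, where 11.7% and 10.3% of protein-coding genes were. The median change of all genes tested was 0.03 in wild type and 0.20 in S13 and S23. Up in both genotypes under all 3 scalings were COL2A1, COL4A6, COL5A2, COL6A1, COL9A2, COL9A3, COL11A1, FN1 and NID1, and down in both were COL14A1 and FBLN1. Whether the larger count in S13 and S23 is a difference between genotypes was tested gene by gene only through the interaction above.

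Collagen IV mRNA came mainly from 2 of the 3 gene pairs. COL4A1 (chr13:110148963-110307233, minus strand) and COL4A2 (chr13:110305812-110513209, plus strand) encode the chains found in nearly all basement membranes. COL4A1 read 12.5 to 15.4 TPM at day 0, 48.9 to 64.1 TPM at day 4 and 41.1 to 54.6 TPM at day 8. COL4A2 read 18.2 to 34.9 TPM, then 46.5 to 74.1 TPM, then 78.2 to 112 TPM. COL4A1 was up from day 0 to day 4 by 1.99 in wild type and 1.95 in S13 and S23 (adjusted p = 5.75e-06 and 7.39e-06 by limma). COL4A2 was up by 1.49 and 1.04 as deposited, but under median-of-ratios scaling neither genotype passed (0.09 in wild type, adjusted p = 0.833, and -0.14 in S13 and S23, adjusted p = 0.722). The ratio of COL4A1 to COL4A2 TPM was 0.404 to 0.847 at day 0, 0.842 to 1.05 at day 4 and 0.481 to 0.550 at day 8, so the pair did not keep 1 ratio. The 2 gene models overlap head to head.

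COL4A5 (chrX:108439844-108697545, plus strand) and COL4A6 (chrX:108155607-108439497, minus strand) are the pair whose shared stretch, printed above, holds the CCAAT boxes on both strands. COL4A5 read 11.7 to 12.7 TPM at day 0, 44.6 to 62.0 TPM at day 4 and 85.9 to 120.4 TPM at day 8. COL4A6 read 2.81 to 3.32 TPM, then 30.4 to 40.4 TPM, then 62.8 to 108 TPM. COL4A6 was up by 3.33 and 2.96 from day 0 to day 4 (adjusted p = 3.36e-07 and 6.71e-07 by limma) and by 0.80 and 1.55 from day 4 to day 8 (adjusted p = 0.0104 and 0.000373), in wild type and in S13 and S23. The later wild-type step was lost on leaving out either of 2 libraries, with an adjusted p of 0.0686 and 0.0703. Across the 12 libraries the log2 levels of the pair had a Pearson correlation of 0.997, against 0.859 for COL4A1 and COL4A2. These are descriptions over libraries that share 3 days, and the value takes in the rise of both genes over them. The ratio of COL4A6 to COL4A5 did not stay level, and went from 0.221 to 0.283 at day 0, through 0.548 to 0.682, to 0.731 to 0.896 at day 8. The third pair was nearly silent. COL4A3 (chr2:227164565-227314792, plus strand) did not exceed 0.408 TPM except in WT1 at day 8, at 1.05 TPM, and COL4A4 (chr2:227002711-227164453, minus strand) did not exceed 0.293 TPM.

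The laminin chains pointed to alpha 5 at day 0 and to alpha 1 and alpha 5 later. At day 0 LAMA5 stood at 83.5 to 89.3 TPM and LAMA1 (chr18:6941744-7117814, minus strand), the alpha chain of early embryonic basement membranes, at 7.04 to 9.53 TPM. At day 4 LAMA1 read 76.1 and 74.1 TPM in WT1 and WT2 and 61.3 and 70.5 TPM in S13 and S23. The day 8 values were 110.4 and 95.3 against 113 and 134 TPM. The day 4 and day 8 libraries all lay above those of day 0, with log2 changes to day 4 of 3.19 and 2.76 (adjusted p = 2.59e-07 and 5.56e-07 by limma). The ratio of LAMA1 to LAMA5 TPM accordingly went from 0.0843 to 0.111 at day 0 to 0.640 to 1.26 at day 4 and 0.639 to 0.979 at day 8. LAMA2, LAMA3 and LAMA4 did not exceed 2.63 TPM in any library.

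Among the other chains, LAMB1 and LAMB2 encode the common beta chains and LAMC1 the common gamma chain. LAMB1 was at 20.5 to 32.0 TPM at day 0, 43.7 to 74.4 TPM at day 4 and 66.3 to 109 TPM at day 8. LAMB2 read 61.1 to 78.8 TPM at day 0 and 51.4 to 72.5 TPM at day 4. At day 8 it read 106 and 74.5 TPM in WT1 and WT2 and 149.5 and 90.9 TPM in S13 and S23. From day 4 to day 8 LAMB1 and LAMB2 passed upward in S13 and S23 and not in wild type. The differences between these steps did not pass. The LAMB1 call was lost without any one of 8 libraries, and the LAMB2 call without any one of 3. The ratio of LAMB1 to LAMB2 was 0.260 to 0.523 at day 0, 0.848 to 1.26 at day 4 and 0.477 to 1.12 at day 8. LAMB1 passed upward from day 0 to day 4 as deposited in both genotypes (1.68 and 0.73). Under median-of-ratios scaling the wild-type call was lost (0.29, adjusted p = 0.187 by limma), and in S13 and S23 the gene passed downward (-0.46, adjusted p = 0.0482). LAMC1 had a wild-type dip at day 4: 48.8 and 52.1 TPM in WT1 and WT2 at day 0, 30.9 and 33.0 TPM at day 4 and 89.0 and 90.5 TPM at day 8. Both wild-type steps passed, at -0.64 and 1.46 (adjusted p = 0.0120 and 0.00252), the first lost on leaving out either of 2 libraries (0.0599 and 0.0620). In S13 and S23 LAMC1 read 50.6 and 52.7 TPM, then 58.6 and 37.7 TPM, then 62.3 and 52.6 TPM, and neither step passed. The test of the difference in its step from day 4 to day 8 gave -1.18 (adjusted p = 0.0721). LAMC3, which encodes another gamma chain, was at 3.11 to 3.48 TPM at day 0 and did not exceed 0.161 TPM in any later library.

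**Figure D5:**
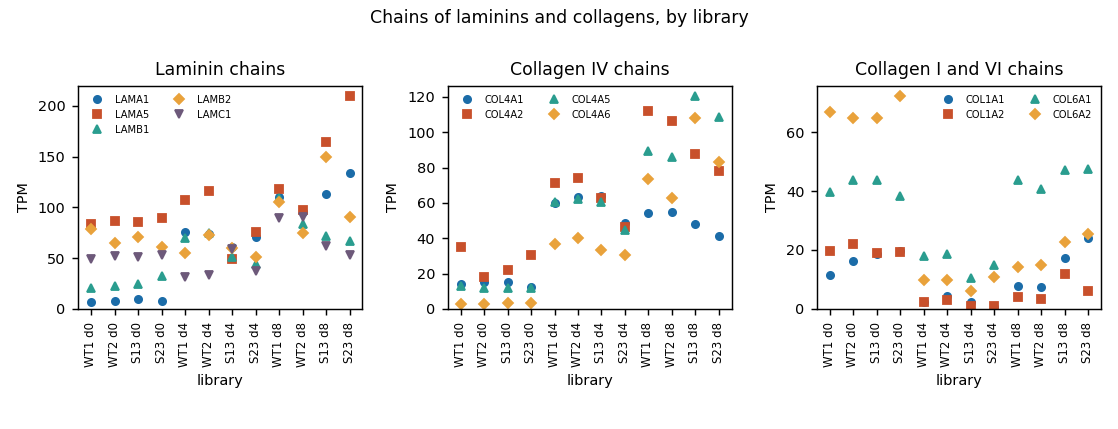
TPM (vertical axes) of laminin chains, collagen IV chains and collagen I and VI chains in each library (horizontal axes, label and day). LAMA1 joins LAMA5 after day 0, COL4A6 follows COL4A5 upward, and COL6A2 starts above COL6A1 at day 0, at 64.7 to 72.1 TPM, and ends below it at day 8.

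NID1, which encodes nidogen-1, a linker of the laminin and collagen IV networks, read 5.55 to 6.51 TPM at day 0. At day 4 it read 45.0 and 48.1 TPM in WT1 and WT2 and 34.3 and 26.5 TPM in S13 and S23, followed by 101 and 102 against 70.7 and 69.4 TPM at day 8. The labelled libraries were below the wild-type ones at both later days without passing (log2 change -0.61 and -0.53, adjusted p = 0.0781 and 0.0730 by limma). NID2, its paralog, read 2.00 to 3.87 TPM at day 0, and at day 4 19.7 and 21.0 TPM in WT1 and WT2 and 11.1 and 9.08 TPM in S13 and S23. Its later wild-type step was -0.93 (adjusted p = 0.0486), lost without any one of 10 libraries (0.0507 to 0.208) and with a pseudocount of 0.1, no filter or median-of-ratios scaling (0.0611 to 0.0834). HSPG2, which encodes perlecan, was at 19.6 to 28.4 TPM through day 4 and at 34.0 to 45.7 TPM at day 8. Its later step passed in S13 and S23 (1.04, adjusted p = 0.00142) and not in wild type (0.33, adjusted p = 0.153), and the difference between the steps did not pass (0.71, adjusted p = 0.121).

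Of the fibrillar collagens, 8 of 11 were tested. COL1A1 and COL1A2 fell from day 0 to day 4 in both genotypes and rose again by day 8 in S13 and S23. COL1A1 went from 11.5 and 16.2 TPM in WT1 and WT2 and 18.6 and 19.7 TPM in S13 and S23 to 2.43 and 4.29 against 2.29 and 0.681 TPM at day 4. Its falls were -1.78 and -3.10 (adjusted p = 0.00169 and 6.63e-05 by limma). The return to day 8 was 1.02 in wild type (adjusted p = 0.0920) and 3.19 in S13 and S23 (adjusted p = 0.000688), and the difference between these steps did not pass (2.16, adjusted p = 0.0821). COL1A2 behaved alike, with falls of -2.58 and -3.31 (adjusted p = 2.99e-05 and 8.04e-06), then 0.40 in wild type (adjusted p = 0.361) and 2.23 in S13 and S23 (adjusted p = 0.000880), and an interaction of 1.83 (adjusted p = 0.0588). COL3A1, the usual partner of collagen I in soft connective tissue, did not exceed 0.199 TPM.

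COL11A1, whose chain joins collagen II in cartilage fibrils, read 4.19 to 11.4 TPM at day 0 and 8.90 to 18.7 TPM at day 4. At day 8 WT1 and WT2 read 85.5 and 78.6 TPM, and S13 and S23 149 and 116 TPM. Its later step passed in both genotypes (2.11 and 3.29, adjusted p = 0.00616 and 0.000497 by limma), and the day 8 difference between genotypes did not (0.67, adjusted p = 0.365). COL5A2, a chain that regulates fibril width, also rose late, from 2.21 to 4.00 TPM at day 4 to 23.2 and 20.2 TPM in WT1 and WT2 and 16.0 and 8.89 TPM in S13 and S23 (2.35 and 1.88, adjusted p = 0.00241 and 0.00269). COL5A1 and COL27A1 were already up at day 4 as deposited in both genotypes. Under median-of-ratios scaling COL5A1 passed in neither genotype, at 0.10 in wild type (1.39 as deposited) and -0.36 in S13 and S23 (0.68 as deposited), with an adjusted p of 0.629 and 0.102. COL27A1 passed under that scaling in wild type (0.56, adjusted p = 0.0276) and not in S13 and S23 (0.29, adjusted p = 0.209).

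Other collagens split by day. COL6A1 and COL6A2 encode chains of collagen VI, a beaded filament around cells, and COL6A3, the chain with which they assemble, did not exceed 1.51 TPM. COL6A2 read 64.7 to 72.1 TPM at day 0, 6.01 to 10.9 TPM at day 4 and 14.2 to 25.3 TPM at day 8. COL6A1 read 38.4 to 43.8 TPM, then 10.6 to 18.7 TPM, then 40.6 to 47.6 TPM. Both fell to day 4 in both genotypes (COL6A2 by -2.65 and -2.93, COL6A1 by -1.14 and -1.62, adjusted p from 5.49e-06 to 0.000162 by limma). The ratio of COL6A2 to COL6A1 thus went from 1.48 to 1.88 at day 0 to 0.517 to 0.724 at day 4 and 0.324 to 0.532 at day 8.

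The collagen IX chains did not share a time course. COL9A3 went from 31.5 to 35.7 TPM at day 0 to 1.10 to 4.38 TPM at day 4 and 12.4 to 20.9 TPM at day 8, a fall of -2.86 and -3.51 (adjusted p = 8.64e-05 and 2.82e-05 by limma) and a rise of 1.7 and 2.59 (adjusted p = 0.0161 and 0.00144). The wild-type rise was lost without any one of 3 libraries (0.0549 to 0.0953). COL9A2 went from 1.81 to 2.06 TPM through 4.22 to 5.24 TPM to the day 8 values above. COL9A1 stayed between 30.4 and 57.1 TPM throughout. At day 4 it read 57.1 and 56.6 TPM in WT1 and WT2 and 31.6 and 32.3 TPM in S13 and S23, without passing. Its wild-type step from day 0 to day 4 passed upward as deposited (0.63), a call lost without any one of 3 libraries. Under median-of-ratios scaling that step passed downward (-0.78, adjusted p = 0.0134 by limma). COL12A1 and COL25A1 rose in wild type from day 4 to day 8 (2.06 and 2.02, adjusted p = 0.00621 and 0.00258) and did not pass in S13 and S23 (0.48 and 0.33, adjusted p = 0.313 and 0.378). The differences between these steps did not pass (-1.58 and -1.69, adjusted p = 0.137 and 0.0678). COL14A1 fell late in both genotypes, from 3.46 to 7.27 TPM at day 4 to 0.504 to 0.916 TPM at day 8 (-1.61 and -1.92, adjusted p = 0.00951 and 0.00217), the wild-type call being lost without either of 2 libraries (0.0585 and 0.0646). COL21A1 fell early in S13 and S23 (-2.88, adjusted p = 0.00250), from 12 and 5.96 TPM to 0.317 and 0.263 TPM. WT1 and WT2 went from 0.622 and 5.76 TPM to 0.145 and 0.388 TPM, a step that did not pass. The difference between these early steps did not pass either. COL18A1 moved in opposite directions from day 4 to day 8, by -0.68 in wild type and 0.52 in S13 and S23 (adjusted p = 0.00841 and 0.0120), which is the interaction given above. Those steps were lost without any one of 3 libraries in wild type (0.0511 to 0.0530) and either of 2 in S13 and S23 (0.0711 and 0.0717), the latter step also under median-of-ratios scaling (0.133).

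Among the glycoproteins, FBN1 and FBN2 encode the fibrillins, the core of elastic microfibrils. FBN1 went from 1.11 to 2.31 TPM at day 0 to 23.1 to 36.8 TPM at day 4 and 44.9 to 55.1 TPM at day 8, and FBN2 from 4.45 to 5.13 TPM to 37.2 to 62.9 TPM and 59.9 to 78.9 TPM. Their early steps were 3.74 and 3.44 in wild type and 3.50 and 2.70 in S13 and S23 (adjusted p from 2.08e-07 to 2.93e-06 by limma). TNC, which encodes the anti-adhesive glycoprotein tenascin-C, read 12.9 TPM in WT1 at day 0 and 0.948, 1.25 and 1.63 TPM in WT2, S13 and S23. It then read 52.3 and 64.6 TPM against 63.4 and 76.6 TPM at day 4, and 30.4 and 39.3 TPM against 9.06 and 12.3 TPM at day 8. The single high library at day 0 gives TNC a wide error, and its early steps of 3.51 and 4.86 (SE 0.72, adjusted p = 0.00247 and 0.000403) still passed. Its later fall passed in S13 and S23 (-2.61, adjusted p = 0.0303), was lost without any one of 4 libraries (0.0925 to 0.125), with a pseudocount of 0.1 (0.0704) and with no filter (0.0583), and did not pass in wild type (-0.73, adjusted p = 0.576). FBLN1 fell from day 4 to day 8 by -1.01 in wild type (adjusted p = 0.0496) and by -3.93 in S13 and S23 (adjusted p = 0.000144), and the wild-type call was lost without any one of 10 libraries (0.0620 to 0.243) and with a pseudocount of 0.1, no filter, quantile normalization or days 4 and 8 alone (0.0610 to 0.0877). FN1 rose over the same step by 1.35 and 1.36 (adjusted p = 0.00183 and 0.000818), with an interaction of 0.01 (SE 0.22) that did not pass. Its genotype calls at day 4 and day 8 were each lost in other fits, so a lasting difference was not established.

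Genes outside the group that make, bind or cut matrix were counted from lists, which were chosen with earlier results of these data known. Over all genes tested 0.384%, 0.775% and 2.79% passed between genotypes at days 0, 4 and 8. For the changes of the difference to day 4 and to day 8 the shares were 0.408% and 1.11%. Of 27 tested genes of collagen processing, such as the prolyl and lysyl hydroxylases and the chaperone SERPINH1, 0 passed in any of the 3 genotype comparisons or in the 2 changes of the difference by limma. The summed TPM of that list was 1063 to 1132 in the wild-type libraries and 977 to 1029 in the labelled ones at day 4, and at day 8 the order was the other way, at 1128 and 1144 against 1241 and 1245. Of 22 tested matrix receptors, 3 were higher at day 8 (ITGA6, ITGAV and BCAM) and 2 lower (ITGA3 and SDC1). ITGA6 encodes the alpha 6 chain of laminin-binding integrins, and read 16.0 and 23.1 TPM in WT1 and WT2 at day 8 and 78.8 and 79.1 TPM in S13 and S23. The groups were far apart (log2 change 1.98, SE 0.17, adjusted p = 0.00115 by limma). At day 4 it read 111 and 127 TPM against 94.4 and 107 TPM, and its difference changed by 2.22 from day 4 to day 8 (adjusted p = 0.00911). BCAM, a receptor for laminin alpha 5, read 22.6 and 18.1 TPM against 43.7 and 51.0 TPM at day 8 (1.18, adjusted p = 0.0496), and ITGA3, another laminin-binding integrin chain, read 9.76 and 14.6 against 5.24 and 4.29 TPM (-1.17, adjusted p = 0.0220).

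Of 13 tested proteases and inhibitors, 3 were higher at day 8 in S13 and S23 (TIMP1, TIMP3 and ADAMTS4) and 1 lower (MMP2). Over all genes tested 2.79% passed at day 8 and 0.775% at day 4, and these lists were also chosen with earlier results known. TIMP3, an inhibitor of metalloproteinases that is held in the matrix, read 20.1 and 15.6 TPM in WT1 and WT2 and 43.2 and 45.6 TPM in S13 and S23 (1.28, adjusted p = 0.0163 by limma). MMP2, a gelatinase that cuts collagen IV, read 24.0 and 27.0 TPM against 15.4 and 12.2 TPM (-0.85, adjusted p = 0.0137). At day 4 MMP2 was also lower (-0.81, adjusted p = 0.0443), as was TIMP2 (-0.52, adjusted p = 0.0494). Of 26 other matrix proteins, only the proteoglycan gene VCAN passed between genotypes at day 8. WT1 and WT2 read 85.4 and 95.6 TPM, S13 and S23 63.9 and 55.5 TPM (-0.59, adjusted p = 0.0161).

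Marker genes of other cell types were set beside these results, from lists also chosen with earlier results known. Over all genes tested 2.79% passed between genotypes at day 8 and 0.775% at day 4. Of 7 tested markers of mesenchyme and fibroblasts, 0 passed between genotypes at day 8, and the summed TPM of the list was 164 to 181 in wild-type libraries and 208 to 220 in the labelled ones. Within the list LUM read 5.10 and 6.24 TPM in WT1 and WT2 and 2.53 and 0.297 TPM in S13 and S23, and ACTA2 read 75.0 and 59.4 TPM against 118 and 100.3 TPM. PDGFRA read 3.88 and 4.20 TPM against 2.01 and 1.71 TPM, and PDGFRB read 8.63 and 9.10 TPM against 11.9 and 24.7 TPM. THY1 was at 78.3 to 86.7 TPM in the 4 libraries. TWIST1, TWIST2, DCN and POSTN were under 1 TPM in all 4, and PRRX1 in all but S23, at 1.22 TPM. Of 5 tested endothelial markers, TEK was lower in S13 and S23 at day 8 (-1.03, adjusted p = 0.0285 by limma), and the sum was 15.0 to 15.1 against 8.95 to 12.4 TPM. The neural crest list summed to 7.67 to 8.98 against 5.34 to 25.2 TPM, with PAX3 at 11.9 TPM in S13. Of 3 tested markers of the roof plate and choroid plexus, 0 passed at day 4 or day 8 by limma. LMX1A, a roof plate gene, read 2.72 and 2.03 TPM in WT1 and WT2 on day 4, where S13 and S23 read 6.54 and 20.4 TPM, and 0.156 and 0.0932 TPM against 6.13 and 2.28 TPM at day 8. Its groups did not overlap at either day (log2 change 1.92 and 2.11, adjusted p = 0.116 and 0.0670 by limma), and it passed at day 8 with protein-coding genes rescaled (0.0209). The sum of that list was 18.8 to 19.5 against 22.0 to 51.3 TPM at day 8. The surface ectoderm list summed to 174 to 176 TPM in wild type and 190 to 237 TPM in S13 and S23 at day 8, with 0 of 3 tested genes passing between genotypes. Its sum was nearly all KRT8 and KRT18, and TP63, KRT5 and KRT14 were under 1 TPM in every library. The endoderm and mesoderm lists did not exceed 2.48 TPM in sum at days 4 and 8. Among 9 neural progenitor markers SIX3, a gene of the anterior forebrain, was lower at day 8 (-2.29, adjusted p = 0.00189), and the sum was 1716 to 1837 against 1896 to 1960 TPM. The part of these shifts in the matrix gene differences was not tested.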

How the data were processed

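Poly(A) RNA of 12 H9 libraries, 6 groups of 2 by genotype and day, was analysed from the TPM that the authors deposited per gene. Per the submitters' processing notes the authors used CASAVA 1.7, Salmon 0.8.2 and hg38; the annotation release and use of strand are not given in the sources used here. The table held 0 columns of other series, and the depth behind its TPM is unknown. The 24248 genes with 1 TPM or more in 2 or more libraries entered limma (3.58.1, R 4.3.3) as log2(TPM + 1): 1 mean per group, all 12 libraries, a variance trend, two-sided tests, 6 residual and 2.29 prior degrees of freedom, and Benjamini-Hochberg adjustment per comparison at 0.05. The fit was tested on simulated data. The members and gene lists were chosen with earlier results of these data known. Named with values, some as ranges or not at every day, were members that passed between genotypes and those with the highest levels. So were those with the largest day steps, all collagen IV genes and the main laminin chains. Other genes were named after their values were seen. Coordinates came from GENCODE v29 on GRCh38, which matched 66 of 66 identifiers, 48 with the same version. Sequences came from RefSeq. The tests and counts cover all members tested, of which 1 is not reported by name or shown in the figures here. Tried as alternatives: pseudocount 0.1 in place of 1, filters at 5 TPM or none, median-of-ratios, quantile and protein-coding rescaling, days 4 and 8 alone, the line label as a block, and each library left out.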

Additional observations from a re-analysis of the deposited data

Results flagged for a closer look

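The difference between genotypes changed between day 4 and day 8 in 3 matrix genes by the interaction test of limma, which is what set them apart here. On the log2(TPM + 1) scale, FBLN1 changed by -2.91, COL18A1 by 1.20 and LAMA5 by 1.65. For FBLN1 and COL18A1 the day 4 difference was near 0 (0.08 and 0.14), and for LAMA5 the difference went from -0.86 to 0.79. None of these 3 calls held in every fit, and all 3 were lost in a fit of days 4 and 8 alone. ITGA6, a chain of laminin-binding integrins outside the group, changed over the same step by 2.22. It came from a list chosen with earlier results known, and a link to the 3 matrix genes was not tested. The cause of these changes was not tested.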

How the results depend on the processing

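The day 8 differences of FBLN1 and COL18A1 passed in every alternative run. Depth is unknown in TPM, so precision rests on 2 libraries per group. For counts of matrix genes that passed between genotypes, day 4 went from 2 to 1 with a pseudocount of 0.1, no filter, median-of-ratios or quantile scaling, to 4 with protein-coding rescaling and to 0 with days 4 and 8 alone. Day 8 went from 5 to 9 with protein-coding rescaling and to 3 with days 4 and 8 alone. The change of the difference from day 4 to day 8 went from 3 to 7 and 0 under these same settings.

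With 1 library left out, a group left with 1 library was assumed to vary like the others. The counts then ran from 0 to 2 at day 0, 0 to 4 at day 4 and 2 to 11 at day 8 between genotypes. They ran from 0 to 1 and 0 to 5 for the change of the difference to day 4 and to day 8. The 11 at day 8 came without S13 or without S23 of day 4. The 2 came without WT2 or S13 of day 8. At day 4 the 4 came without S23 of day 4. In wild type they ran from 29 to 34 and 11 to 18 for the day steps, the 11 without WT1 of day 4 or of day 8. In S13 and S23 they ran from 28 to 30 and 22 to 28.

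Differences between lines correlated by -0.00603 to 0.0712 between days, the highest value being that of S13 minus S23 at days 4 and 8. Each value summarises many genes by a difference between single libraries. It therefore cannot show whether the line label pairs the libraries for some of these genes, and that was not tested. With the label as a block, the counts were 0 at day 4 and 3 at day 8 between genotypes, and 0 for the change of the difference to day 8. Lost were COL2A1 (adjusted p = 0.0678 by limma) and FN1 (0.091) at day 4, and COL25A1 (0.0582) and COL9A2 (0.119) at day 8. For the change of the difference FBLN1 (0.0517), COL18A1 (0.0821) and LAMA5 (0.0781) were lost.

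Under median-of-ratios scaling the change from day 0 to day 4 reversed in S13 and S23 for COL4A2 (-0.14), COL5A1 (-0.36), COL9A2 (-0.0081) and LAMB1 (-0.46), and in wild type for COL9A1 (-0.78) and COL9A2 (-0.070). Under quantile normalization it reversed for COL5A1 (-0.023) and COL9A1 (-0.12). These steps carry the shift of the day 0 libraries, and the cause was not tested. Of 118 calls, 20 were lost by median-of-ratios scaling, 15 by quantile normalization, 14 by the block, 10 each by no filter and by days 4 and 8 alone, 8 by the pseudocount, 4 by protein-coding rescaling and 1 by the filter at 5 TPM.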
